A study of Mus musculus with 6 samples.

Results

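The frizzled receptor genes Fzd1 to Fzd10 were followed in whole E13.5 (embryonic day) mouse kidneys. All probe sets that the platform annotation gave to one of these genes alone were taken, which made 26 of the 45037 probe sets that are no array controls, and each of these 10 of 18193 named genes had between 1 and 6. The samples were 3 Fz4-/- and 3 Fz4+/+ kidney samples, read on 6 Affymetrix MOE430.2 arrays, with 1 sample per genotype from every one of 3 litters. Fz4 is the protein of Fzd4, and Fz4-/- is taken here as homozygous for a mutant Fzd4 allele. The labels give neither the construction of the allele nor the strain, nor how many embryos went into a sample, so p-values measure the spread between these samples. The questions were which frizzled signals stand above background in this tissue and whether another frizzled signal differs where Fzd4 is missing.

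Frizzled proteins cross the membrane in a bundle of helices and hold an outer cysteine-rich domain that binds Wnt ligands. Together with the co-receptors Lrp5 and Lrp6 they pass the signal to Dishevelled and stabilise beta-catenin, while other frizzleds, Fzd3 and Fzd6 among them, orient cells in a tissue plane. In the embryonic kidney Wnt signals drive branching of the ureteric bud and induce nephrons in the mesenchyme around it. Fz4 also binds Norrin, a ligand that is no Wnt, and is best known for its part in blood vessels of the eye. Fzd4 and Fzd8 have been studied together for the growth of the ureteric tree.

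Kidney markers gave signal on all 6 arrays. Ret, the receptor of ureteric tips, lay between 9.31 and 9.59 log2, Foxd1 of the stroma between 10.73 and 11.39, and Six2 of the nephron progenitors lower, between 7.76 and 8.09. The values are log2 signals summarised and normalised by the authors with RMA, which compresses differences near background. The median of the arrays lay between 6.62 and 6.74. On the first principal component, with 70.8% of the variance, both samples of litter 3 stood above the other 4. They lay at 48.7 in Fz4-/- and 70.1 in Fz4+/+, against -48.9 to -0.098. The samples of litter 2 were also far apart, at -0.098 in Fz4-/- and -48.9 in Fz4+/+. The number of arrays limits the precision. In whole organs, fewer cells of a type and less RNA per cell cannot be told apart.

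Which frizzleds gave signal above background was judged against genes restricted to other tissues, such as crystallins, casein and sperm proteins. That list had 66 probe sets of 41 genes, with a median of 4.11 to 4.44 log2 on the 6 arrays. A frizzled probe set was counted as above background where it exceeded the 95th percentile of the list on every array. Probe sets differ in affinity, so the order of their signals is no order of transcript amounts. By this rule 8 of the 26 frizzled probe sets, from 5 genes, stood above background, namely Fzd1, Fzd2, Fzd3, Fzd6 and Fzd7. The rule takes in the Fz4-/- arrays, where Fzd4 is the mutated gene, so it cannot show whether Fzd4 is present in Fz4+/+. On the 3 Fz4+/+ arrays 1434756_at of Fzd4 exceeded even the highest probe set of the list.

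The 95th percentile was uneven, at 8.12, 7.77 and 7.05 in the Fz4-/- samples of litters 1 to 3 and 6.51, 6.50 and 7.08 in the Fz4+/+ samples. By their mean over the 6 arrays, 3 probe sets of Prm1 and 1 of Csn1s2a were the brightest of the list, and they varied between arrays, Csn1s2a from 2.87 to 9.31 log2. With these 2 genes removed, which was decided once their signals were known, the percentile lay between 5.47 and 6.22 and 13 frizzled probe sets exceeded it on every array. Fzd5 and Fzd10 were then added to the genes above background. On the 3 Fz4+/+ arrays alone, also chosen afterwards, 15 probe sets exceeded the original percentile, 2 of Fzd4 among them. Fzd9 exceeded the original percentile on 0 arrays and the lower one on 1.

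**Figure D1:**
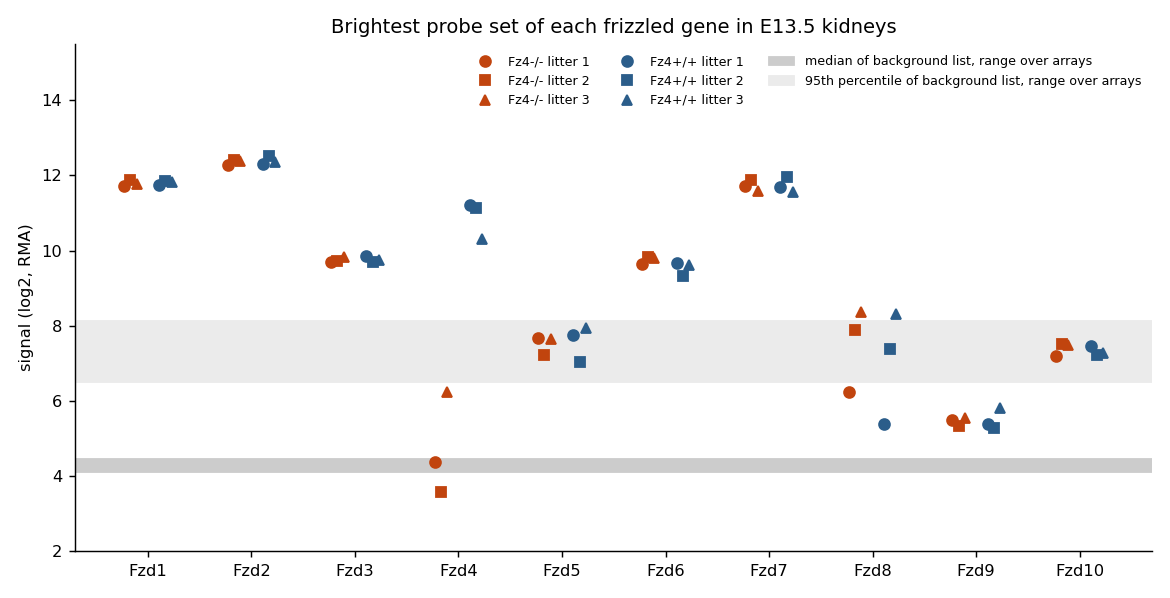
Log2 RMA signal of the brightest probe set of each frizzled gene, with Fz4-/- samples left of Fz4+/+ samples, a symbol for each litter, and grey bands for the range over arrays of the median and of the 95th percentile of the background list. Fzd1, Fzd2 and Fzd7 lie above 11 in every sample, Fzd4 is below 6.3 in Fz4-/- and above 10.3 in Fz4+/+, and Fzd8 spreads over 2.14 log2 in Fz4-/- and 2.92 log2 in Fz4+/+.

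Fzd4 was lower in Fz4-/- than in Fz4+/+ in each litter on both of its probe sets with signal. Probe set 1434756_at read 4.37, 3.58 and 6.22 log2 in the Fz4-/- samples of litters 1 to 3, against 11.21, 11.12 and 10.31 log2 in the Fz4+/+ samples. Probe set 1419301_at read 4.33, 4.05 and 5.05 log2 in Fz4-/-, against 7.53, 7.72 and 8.48 log2 in Fz4+/+. On neither did the genotypes overlap. The Fz4-/- sample of litter 3 was the highest of its genotype on both, whereas the Fz4+/+ sample of litter 3 was the lowest of its genotype on the first and the highest on the second.

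The difference of Fz4-/- minus Fz4+/+ within litters 1 to 3 was -6.83, -7.54 and -4.09 on 1434756_at and -3.20, -3.67 and -3.43 on 1419301_at. limma gave the mean difference a 95% interval of -7.82 to -4.49 on the first and of -4.29 to -2.58 on the second. In Fz4+/+ kidneys the first stood at the 92.0th percentile of all probe sets. In Fz4-/- neither exceeded the 95th percentile of the whole background list on any array. Against the list without Prm1 and Csn1s2a, 1434756_at in the Fz4-/- sample of litter 3 did, at 6.22 against 5.47 log2. The mean of the Fz4-/- samples was 4.72 log2 on the first. No fold is given, since these readings lie near background. The third probe set, 1449416_at, lay between 2.93 and 3.17 log2 in both genotypes. For both probe sets with signal a two-sided exact permutation test gave p = 0.1, the smallest that 3 against 3 can give.

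limma's unadjusted p of 9.57e-05 for 1434756_at and 5.98e-05 for 1419301_at did not survive adjustment over 27022 probe sets, at 0.999988 for both. A limma fit that paired samples by litter gave 1419301_at an unadjusted p of 4.78e-06 and an adjusted p of 0.129. For 1434756_at that paired fit gave 6.91e-04 and 0.999986. When litter was a random effect, limma's adjusted p was 0.0726 for 1419301_at and 0.706 for 1434756_at. Neither probe set was called in these fits. With array weights both were called, at limma's adjusted p of 0.0370. That fit weighted the Fz4-/- sample of litter 2 by 8.81 and the Fz4+/+ sample of litter 1 by 2.99. The position of the probe sets within Fzd4 was not analysed here, and one outside the altered stretch would not check the labels.

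The 250 bases before the start of Fzd4, on the plus strand of chr7:89404116-89404365 in GRCm38.p6 as RefSeq places it, are shown because this is the gene whose signal differs between the genotypes. Capitals mark 4 kinds of motif, each searched on both strands. They are the GC box, GGGCGG, the CCAAT box, the TATA box, which reads TATAAA here, and a T-cell factor motif spelled CTTTGAT.
Fzd4: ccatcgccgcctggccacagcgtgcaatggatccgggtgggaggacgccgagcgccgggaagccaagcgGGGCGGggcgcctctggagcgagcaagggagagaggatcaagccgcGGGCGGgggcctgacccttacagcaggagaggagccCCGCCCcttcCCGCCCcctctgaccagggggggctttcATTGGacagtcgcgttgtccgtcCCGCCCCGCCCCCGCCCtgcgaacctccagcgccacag
The stretch holds 7 GC boxes, with 1 overlapping pair, and 1 CCAAT box, with 0 TATA boxes and 0 T-cell factor motifs. Of all 32851 promoters of this length 32.7% hold a GC box, 33.8% a CCAAT box, 12.4% a TATA box and 3.21% a T-cell factor motif. Its GC content was 72.8%, against a median of 52.4% over those promoters.

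Across the family, 20 of the 26 probe sets passed the filter on low signal, a mean over all arrays of at least 5.89 log2, and every gene but Fzd9 had one that did. limma called 0 of the 20 and 0 of all 27022 probe sets tested (0%) at an adjusted p of 0.05. At an unadjusted p under 0.05 stood 2 of the 20, both of Fzd4, beside 0.884% of all tested. The genotypes did not overlap on the same 2 probe sets, beside 3.64% of all tested. These 2 reached the filter only through Fz4+/+, with Fz4-/- means of 4.72 log2 on 1434756_at and 4.47 log2 on 1419301_at. Both counts thus add no support of their own. Fzd8 1445815_at reached the filter only through Fz4-/-, with a Fz4+/+ mean of 5.87 log2. Of the 18 tested probe sets of other frizzleds 11 were above 0 and 7 below, with a median of 0.029 beside 0.033 over all tested. In 1 of these 18, of Fzd8, Fz4-/- was higher in all 3 litters, beside 14.2% of all tested, and in 0 of them it was lower in all 3, beside 7.28%.

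**Figure D2:**
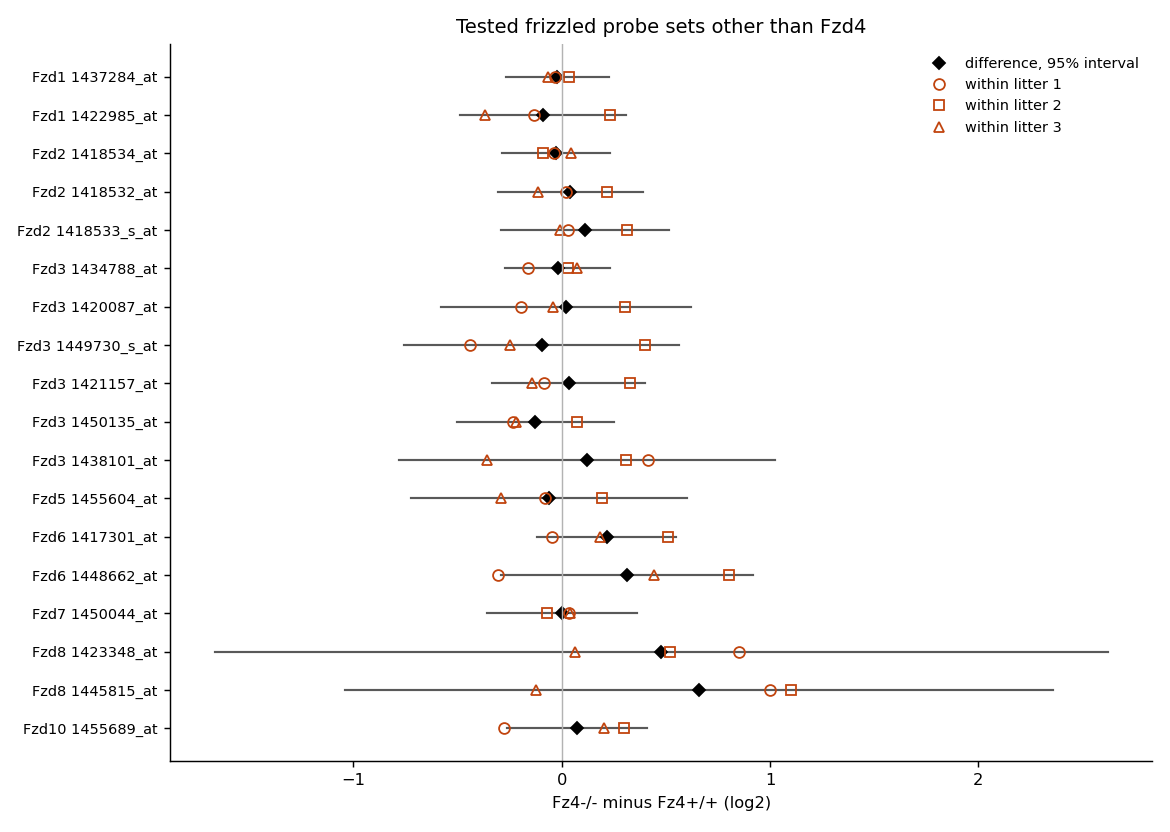
Difference of Fz4-/- minus Fz4+/+ (log2) for the 18 tested probe sets of frizzleds other than Fzd4, with limma's 95% interval as a line, the mean difference as a filled diamond and the differences within litters 1 to 3 as open symbols. Every interval holds 0, and those of Fzd8 are the widest, from -1.66 to 2.62 and from -1.04 to 2.36.

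Fzd1, Fzd2 and Fzd7, which form one branch of the family by sequence, gave the brightest frizzled signals and differed little between the genotypes. Fzd2 (1418534_at) read 12.28, 12.41 and 12.39 log2 in the Fz4-/- samples of litters 1 to 3, against 12.32, 12.50 and 12.34 log2 in Fz4+/+. The samples interleaved, and the ratio of Fz4-/- to Fz4+/+ was 0.981, with a limma 95% interval of 0.819 to 1.17. Its signal stood at the 98.3rd percentile of all probe sets.

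Fzd1 (1437284_at) read 11.71, 11.87 and 11.76 log2 in Fz4-/-, against 11.74, 11.84 and 11.83 log2 in Fz4+/+. Here too the genotypes overlapped, with a ratio of 0.986 and an interval of 0.831 to 1.17. Fzd7 (1450044_at) read 11.73, 11.89 and 11.60 log2 in Fz4-/-, against 11.69, 11.95 and 11.55 log2 in Fz4+/+. Both genotypes were highest in litter 2 and lowest in litter 3, and the ratio was 1.00 with an interval of 0.781 to 1.29. Together the 3 intervals run from 0.781 to 1.29. limma's adjusted p was 0.999988 for each.

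The other probe sets of these genes were dimmer. For Fzd2, 1418532_at differed by 0.04 and 1418533_s_at, whose probes match more than one transcript, by 0.11 log2. The second probe set of Fzd1, 1422985_at, read between 6.07 and 6.58 log2 and differed by -0.09. The second of Fzd7, 1450043_at, read between 5.21 and 5.51 log2, did not pass the filter and differed by -0.09. None of these 4 separated the genotypes.

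Upstream stretches of Fzd1 and Fzd7 are shown because both genes were bright in either genotype while their letters differ. They are the 250 bases before the RefSeq starts, at chr5:4758217-4758466 on the minus strand for Fzd1 and chr1:59481897-59482146 on the plus strand for Fzd7, in GRCm38.p6, with the same motifs in capitals.
Fzd1: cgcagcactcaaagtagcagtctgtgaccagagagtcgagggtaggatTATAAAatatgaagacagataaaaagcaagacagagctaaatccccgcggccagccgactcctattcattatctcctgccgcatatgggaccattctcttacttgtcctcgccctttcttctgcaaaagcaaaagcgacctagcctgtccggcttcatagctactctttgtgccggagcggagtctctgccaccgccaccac
Fzd7: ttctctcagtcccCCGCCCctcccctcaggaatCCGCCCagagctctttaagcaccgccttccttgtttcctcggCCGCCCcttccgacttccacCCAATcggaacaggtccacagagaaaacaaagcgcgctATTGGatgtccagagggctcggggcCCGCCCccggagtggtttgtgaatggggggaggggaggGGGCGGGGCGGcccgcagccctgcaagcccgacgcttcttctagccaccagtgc
That of Fzd7 holds 6 GC boxes, with 1 overlapping pair, and 2 CCAAT boxes. That of Fzd1 holds 0 of either and 1 TATA box. GC content was 51.2% for Fzd1 and 65.2% for Fzd7. These are matches of letters only. Upstream stretches were kept here for 6 of the 10 genes, a count that does not show which genes RefSeq lacks.

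Fzd3 and Fzd6 carry planar polarity signals in skin, axons and the inner ear. Fzd3 (1434788_at) read 9.69, 9.73 and 9.83 log2 in the Fz4-/- samples of litters 1 to 3, against 9.85, 9.70 and 9.76 log2 in Fz4+/+. The genotypes overlapped, with a difference of -0.02 and a 95% interval of -0.27 to 0.23. The other 5 probe sets of Fzd3 were dimmer and differed by -0.13 to 0.12, 3 of them above 0 and 2 below. On 1420087_at and 1449730_s_at both samples of litter 3 were the highest of their genotype, at 8.68 and 8.13 log2 in Fz4-/- and 8.73 and 8.38 log2 in Fz4+/+. On 1438101_at both were the lowest, at 5.34 log2 in Fz4-/- and 5.69 log2 in Fz4+/+.

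Fzd6 had a mean difference above 0 on each of its 3 probe sets, and limma called none of them. Probe set 1417301_at read 9.63, 9.83 and 9.80 log2 in Fz4-/-, against 9.68, 9.32 and 9.62 log2 in Fz4+/+. The Fz4+/+ sample of litter 2 was the lowest of all, and the Fz4-/- sample of litter 1 lay below the Fz4+/+ sample of its litter. The ratio was 1.16, with an interval of 0.923 to 1.46, limma's adjusted p of 0.999988 and p = 0.2 by the exact permutation test. Leaving out the Fz4+/+ sample of litter 2 brought the difference to 0.11 log2, against 0.22 with it. The dimmer sets 1448662_at and 1458904_at differed by 0.31 and 0.33, and 1458904_at was too dim to be tested. Leaving out the Fz4+/+ sample of litter 2 brought 1448662_at to 0.08, and leaving out the Fz4-/- sample of litter 1 brought 1458904_at to 0.11. Within litter 1 these dimmer sets went opposite ways, at -0.31 and 0.66.

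In the Fz4+/+ sample of litter 2 the mean of the list of ureteric epithelium and stalk markers was also low. The mean of the 13 tested genes of that list, Cdh1, Epcam and keratins among them, was 9.39, 9.56 and 9.54 log2 in the Fz4-/- samples of litters 1 to 3, against 9.35, 9.01 and 9.45 log2 in Fz4+/+. Cdh1 itself was lowest in the Fz4+/+ sample of litter 3, at 10.69 log2 against 10.73 in that of litter 2. The list of ureteric tip markers went the other way. It was highest in the Fz4+/+ sample of litter 2, at a mean of 9.70 log2 against 9.46 to 9.68 in the others. Striated muscle genes were also highest in that sample, at a mean of 8.50 log2 against 6.72 in the Fz4-/- sample of its litter. The part of these tissues in the Fzd6 values was not tested.

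Fzd8 and Fzd5 form another branch of the family, and Fzd8 was the frizzled that varied most between litters. Probe set 1423348_at read 6.23, 7.89 and 8.37 log2 in the Fz4-/- samples of litters 1 to 3, against 5.38, 7.37 and 8.30 log2 in Fz4+/+. The second, 1445815_at, read 5.64, 6.93 and 7.02 log2 in Fz4-/-, against 4.63, 5.83 and 7.15 log2 in Fz4+/+. On both sets litter 1 was lowest and litter 3 highest in each genotype, an order that no other tested frizzled probe set had and that 11.6% of all tested probe sets shared. The means of the litters spanned 2.53 log2 on the first, more than in 99.2% of tested probe sets, and 1.95 log2 on the second, more than in 98.3%.

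Within litters 1 to 3 the difference of Fzd8 was 0.85, 0.52 and 0.06 on 1423348_at and 1.00, 1.10 and -0.12 on 1445815_at. Fz4-/- was thus higher on both sets in litters 1 and 2, and in litter 3 the sets disagreed in sign. In litter 1 the readings lay near background. On both sets they were below the 95th percentile of the background list, 8.12 log2 in Fz4-/- and 6.51 log2 in Fz4+/+. Over the 6 arrays 1423348_at exceeded that percentile on 4 and 1445815_at on 1. The size of the litter 1 differences is therefore uncertain. The genotypes overlapped on both sets. The mean difference was 0.48 with a 95% interval of -1.66 to 2.62 on the first and 0.66 with an interval of -1.04 to 2.36 on the second. limma's adjusted p was 0.999988 for each, and the exact permutation p was 0.6 and 0.7.

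With the litter as a block in limma the Fzd8 intervals narrowed to 0.0046 to 0.95 on 1423348_at and -0.09 to 1.41 on 1445815_at. The unadjusted p was 0.0486 and 0.0720, beside 3.11% of all tested probe sets under 0.05 in that fit, and the adjusted p 0.999986 for both. Among the 18 tested probe sets of frizzleds other than Fzd4, 1423348_at was the 1 under an unadjusted 0.05 with the block. Leaving out Fz4-/- samples of litters 1, 2 and 3 in turn gave 1.11, 0.28 and 0.04 on 1423348_at and 1.11, 0.46 and 0.41 on 1445815_at. Leaving out Fz4+/+ samples in the same way gave -0.34, 0.65 and 1.12 on the first and 0.04, 0.64 and 1.30 on the second.

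**Figure D3:**
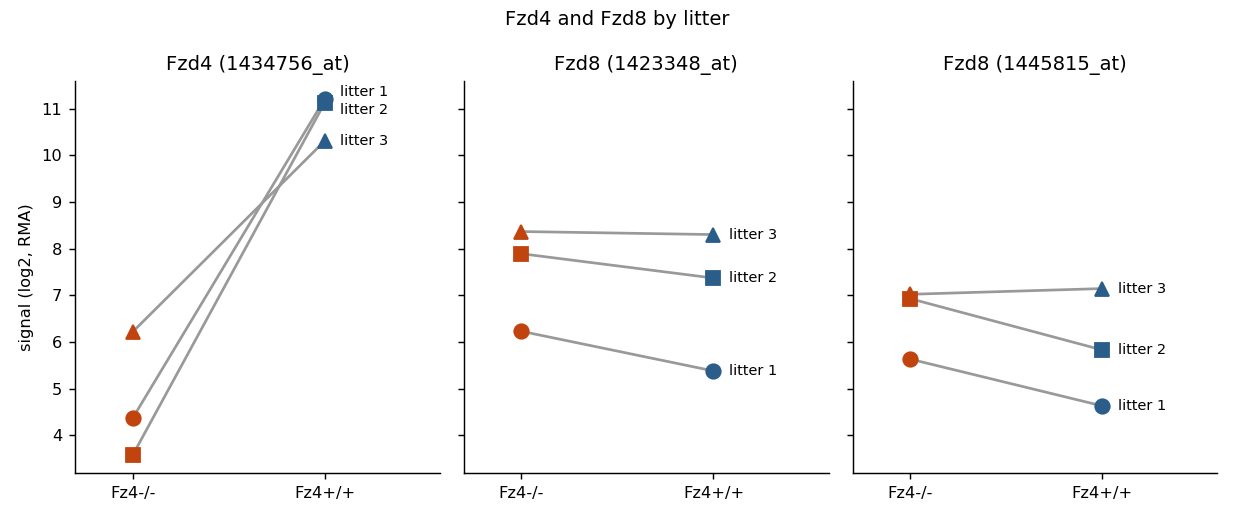
Log2 RMA signal of Fzd4 (1434756_at) and of the 2 probe sets of Fzd8, with Fz4-/- left of Fz4+/+ and a line joining the samples of each litter. Fzd4 is lower in Fz4-/- in all 3 litters, while Fzd8 differs more between litters than between genotypes, with litter 1 lowest and litter 3 highest in each genotype.

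Of 10 lists of cell type markers, 1 had the same order of litters in both genotypes, beside 11.6% of all tested probe sets. It was that of adrenal cortex and gonad, with 2 tested genes, Inha and Star. Its mean was 6.81, 7.08 and 7.63 log2 in the Fz4-/- samples of litters 1 to 3, against 6.79, 6.81 and 7.64 log2 in Fz4+/+. Inha alone had that order in both genotypes, whereas Star read 6.77, 6.51 and 7.31 log2 in Fz4+/+. Star, a steroid gene, read at most 7.46 log2. Nephron progenitor, stromal, ureteric and endothelial lists did not follow that order in both genotypes. As a single gene Foxd1 of the stroma did, whereas Ret and Six2 did not. Foxd1 read 11.07, 11.19 and 11.39 log2 in Fz4-/-, against 10.73, 11.22 and 11.38 log2 in Fz4+/+. The part of adrenal or gonadal tissue in the Fzd8 values was not tested.

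Fzd5 (1455604_at) read 7.66, 7.22 and 7.65 log2 in the Fz4-/- samples of litters 1 to 3, against 7.74, 7.02 and 7.94 log2 in Fz4+/+. Litter 2 was lowest in both genotypes. The ratio was 0.960, with an interval of 0.607 to 1.52 that narrowed to 0.757 to 1.22 with the litter as a block. Its other probe set, 1422937_at, lay between 3.13 and 3.88 log2 and was not tested.

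Fzd9 and Fzd10 are the closest relatives of Fzd4 by sequence, and their signals were low. Fzd10 (1455689_at) read 7.19, 7.51 and 7.49 log2 in Fz4-/-, against 7.47, 7.21 and 7.28 log2 in Fz4+/+. The genotypes overlapped, the ratio was 1.05 and the interval 0.835 to 1.33. The other set, 1440182_at, lay between 4.05 and 4.66 log2. Fzd9 (1427529_at) read 5.49, 5.33 and 5.54 log2 in Fz4-/-, against 5.38, 5.27 and 5.81 log2 in Fz4+/+, and did not pass the filter. In limma without the filter its difference was -0.03 with an interval of -0.45 to 0.38.

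The genes whose values were most like those of Fzd4 and of Fzd8 over the 6 arrays were sought among 1680 other genes that span at least 1 log2. For Fzd4 the 5 highest were Apobec2, Actn2, Mybpc1, Ubxn10 and Synpo2l, with Pearson's r of 0.902, 0.843, 0.819, 0.815 and 0.804. Apobec2, Actn2, Mybpc1 and Synpo2l are genes of striated muscle, and each was lowest in the Fz4-/- sample of litter 2, where Fzd4 was lowest as well. They were chosen by their correlation with Fzd4, so the shared minimum is no separate evidence. In Fz4-/- samples of litters 1 to 3 Apobec2 read 5.84, 5.39 and 6.32 log2, and Actn2 5.76, 5.54 and 5.75 log2. These readings lay around or below the filter on low signal, which both genes exceeded in every Fz4+/+ sample. The mean of the 11 tested muscle genes was 7.86, 6.72 and 7.97 log2 in the Fz4-/- samples of litters 1 to 3, against 7.98, 8.50 and 7.77 log2 in Fz4+/+, and the part of muscle in the Fzd4 values was not tested. For Fzd8 they were Cacfd1, Rab4a, Mkx, Tex15 and Rmst, with r from 0.980 to 0.992, and 95 of the genes had an r above 0.9. These coefficients chose the genes and rest on litters as much as on genotype, so they are given as descriptions.

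Genes that act with frizzleds were read through the brightest probe set of each, and limma called 0 of them, as it called 0 of 12535 genes read this way (0%). Of those 12535 genes 63.5% were above 0, with a median of 0.034. Lrp6, the co-receptor, averaged 11.65 log2 in Fz4-/- and 11.54 in Fz4+/+ and differed by 0.11, and Lrp5 differed by 0.15. Tspan12, which helps Norrin signal through Fz4, differed by -0.08, with -0.75, 0.28 and 0.23 within litters 1 to 3. Ndp, the gene of Norrin, averaged 5.34 log2 in Fz4-/- and 5.38 in Fz4+/+ and was not tested. The 3 tested genes of this list had a median of 0.11.

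Of the Dishevelled and Wnt secretion genes 3 of 5 were above 0, with a median of 0.05. Dvl2, which carries the signal inwards, read 8.74, 9.03 and 8.82 log2 in the Fz4-/- samples of litters 1 to 3, against 8.56, 8.51 and 8.67 log2 in Fz4+/+. The genotypes did not overlap, as for 3.81% of all genes, and the difference was 0.28 ± 0.12 (SE) with limma's adjusted p of 0.999988. Dvl3 and Porcn differed by -0.17 and -0.07. Among the 5 tested receptors with a frizzled-like domain or other Wnt receptors, Ror2, Smo and Ptk7 differed by 0.14, 0.09 and 0.07, and all 5 were above 0, with a median of 0.07.

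Frizzled turnover is set by Znrf3 and Rnf43, which remove frizzleds from the membrane, and by R-spondins and their Lgr receptors, which restrain them. Of 7 tested genes 3 were above 0 and 4 below, with a median of -0.0011. Lgr6 read 4.87, 5.65 and 6.09 log2 in Fz4-/-, against 5.95, 6.33 and 6.69 log2 in Fz4+/+. Lgr6 was lower in Fz4-/- in all 3 litters, as were 7.28% of all tested probe sets, though the genotypes overlapped. The difference was -0.78 ± 0.35 (SE). It passed the filter of 5.89 log2 only through Fz4+/+, with a mean of 6.32 log2 there and 5.54 log2 in Fz4-/-. Rnf43 differed by 0.44 ± 0.37 and Lgr5 by -0.31 ± 0.76 (SE).

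Of the secreted frizzled-related proteins, which bind Wnts outside the cell, 3 of 4 tested were above 0, with a median of 0.10. Frzb, Sfrp4 and Sfrp1 differed by 0.26, 0.12 and 0.08. Of 19 Wnt ligand genes 9 were tested and 5 of these lay above 0, with a median of 0.09. Wnt9b, the ureteric bud signal that induces nephrons, Wnt8b and Wnt9a differed by 0.30, 0.29 and 0.28. Of 18 tested beta-catenin targets 13 lay above 0, with a median of 0.11, and Cd44 differed by 0.20. Rnf43 and Lgr5 also stand in this list. Axin2, a common readout of the pathway that the naming rule did not pick, averaged 9.87 log2 in Fz4-/- and 9.76 in Fz4+/+ and differed by 0.11 ± 0.16 (SE).

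**Figure D4:**
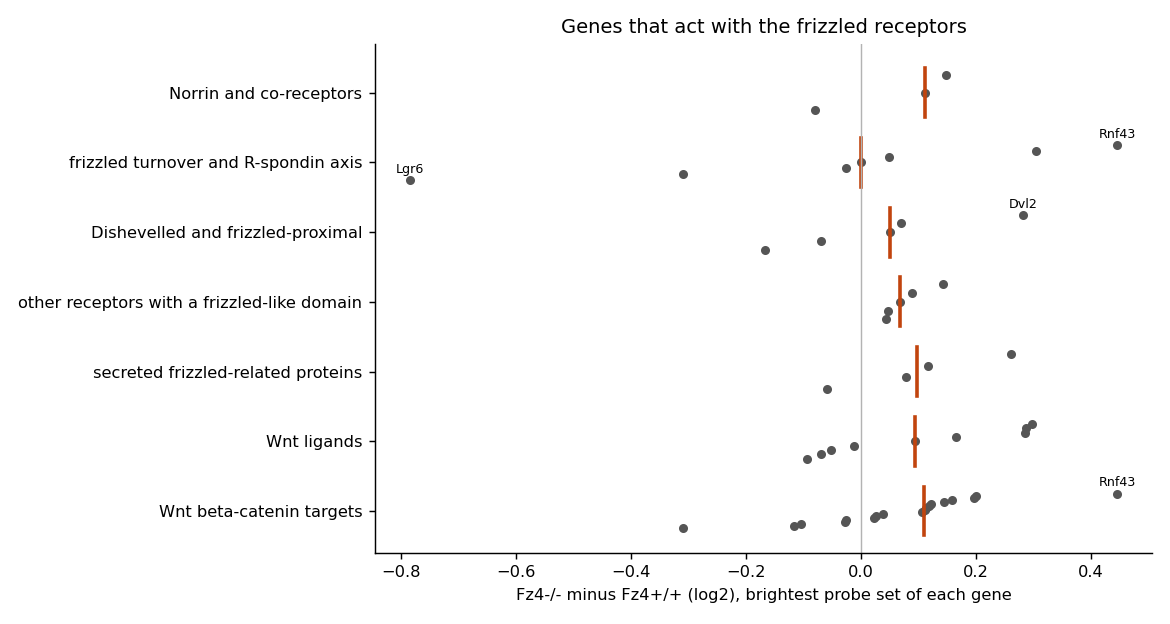
Difference of Fz4-/- minus Fz4+/+ (log2) of the tested genes of 7 lists that act with frizzleds, each point a gene by its brightest probe set, with a vertical bar at the list's median. Medians lie between -0.0011 and 0.11, and Lgr6 at -0.78 and Rnf43 at 0.44 lie farthest out.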

How the data were processed

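The deposited log2 expression values per probe set were made by the authors with RMA, per the submitters' processing notes, where RMA has no version, and were used without further normalization. Of 45101 probe sets, 64 controls were left out, and 27022 with a mean at or above the 40th percentile were tested. The platform annotation gave 34958 probe sets 1 gene, 932 several and 9211 none, and the 10 frizzled symbols matched RefSeq of GRCm38.p6 by gene number.

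The comparison of Fz4-/- with Fz4+/+ used limma 3.58.1 (R 4.3.3), with genotype as the sole term, two-sided and Benjamini-Hochberg adjusted over all tested probe sets at 0.05. Ratios are powers of 2 of the log2 differences. The fit was tested on simulated data with independent arrays and no litter effect, so that test does not cover the pairing by litter. Equal replicate numbers mark a shared litter in the labels, and so pair the samples. After the mean of each genotype was removed, paired arrays correlated by 0.577, 0.178 and 0.809 within litters 1, 2 and 3. Of the unpaired arrays, Fz4-/- of litter 1 and Fz4+/+ of litter 2 correlated by 0.609, and the others by -0.749 to 0.0784. These values set litter 3 apart but do not separate litter 1 from litter 2, so the pairing rests on the labels.

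All frizzled probe sets were named, up to 3 tested genes of each pathway list by absolute difference, and 5 genes by correlation with Fzd4 and with Fzd8. Members, lists and rules were chosen with earlier results of these data known. RefSeq gave the upstream sequences.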

Additional observations from a re-analysis of the deposited data

How the results depend on the processing

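limma called 0 probe sets over all tested and 0 frizzled ones under every alternative but array weights, where both counts were 2 and both calls were Fzd4. No filter, a filter at the 60th percentile, quantile normalization, litter as a block or random effect, another variance prior, each sample left out and litter 3 left out were run. With the litter as the replicate block the counts were 0 and 0 and no call changed, while unadjusted p under 0.05 numbered 841, against 239 without it. That number was 531 with no filter, 141 with the stricter filter, 126 with the other variance prior, 940 with the litter as a random effect, 6084 with array weights, 1102 without litter 3, and 124 to 1725 with 1 sample left out. Fzd4 differed by -6.90 to -5.58 on 1434756_at and -3.72 to -3.15 on 1419301_at with 1 sample left out, and by -7.38 and -3.50 with array weights. With array weights Fzd8 differed by 1.98 and 1.90, not called, at limma's adjusted p of 0.151 and 0.147. The weights were 8.81 for Fz4-/- of litter 2 and 2.99 for Fz4+/+ of litter 1, against 0.218 to 0.658 for the rest. This fit thus mainly set litter 2 of Fz4-/- against litter 1 of Fz4+/+, and Fzd8 was lowest in litter 1. The genotype and litter differences of Fzd8 are therefore mixed in it.

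Of 320 frizzled differences recomputed, 271 kept their direction and side of the threshold, 2 became calls and 47 changed sign, 37 of them of tested probe sets that were not called and 10 of probe sets too dim to be tested. The cause was not tested. Under quantile normalization the sign changed for Fzd2 1418532_at (-0.0140) and for Fzd3 1420087_at (-0.0287) and 1421157_at (-0.00979), and for the untested Fzd4 1449416_at (0.019) and Fzd9 1427529_at (0.017). Array weights gave 0.0593 for Fzd2 1418534_at, 0.0694 and 0.0961 for Fzd1 1422985_at and 1437284_at, and -0.0379, -0.0429 and 0.0658 for Fzd3 1420087_at, 1421157_at and 1450135_at. Without litter 3 the values were 0.0484 and 0.0023 for the same Fzd1 sets, -0.0155 for Fzd7 1450044_at, 0.0559 for Fzd5 1455604_at, and 0.095 and 0.086 for the untested Fzd5 1422937_at and Fzd9 1427529_at.

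With 1 sample left out, Fzd1 ran from -0.200 to 0.0583 on 1422985_at and -0.0661 to 0.0149 on 1437284_at. Fzd2 ran from -0.0562 to 0.163 on 1418532_at, -0.0051 to 0.250 on 1418533_s_at and -0.0640 to 0.0299 on 1418534_at. Fzd3 ran from -0.173 to 0.220 on 1420087_at, -0.115 to 0.117 on 1421157_at, -0.0608 to 0.0215 on 1434788_at, -0.0904 to 0.529 on 1438101_at and -0.363 to 0.113 on 1449730_s_at. Fzd5 1455604_at ran from -0.332 to 0.128, Fzd7 1450044_at from -0.0854 to 0.115 and Fzd8 1423348_at from -0.340 to 1.12. Fzd6 kept its sign, from 0.107 to 0.286 on 1417301_at, 0.078 to 0.492 on 1448662_at and 0.107 to 0.493 on 1458904_at. Of the untested sets Fzd4 1449416_at ran from -0.050 to 0.067, Fzd5 1422937_at from -0.286 to 0.090 and Fzd9 1427529_at from -0.143 to 0.127. The 8 frizzled probe sets above background became 5 against the 99th percentile of the list and 5 against its highest probe set, 16 with at least 3 of 6 arrays, and, in settings chosen after the data were seen, 15 on the Fz4+/+ arrays alone and 13 without Prm1 and Csn1s2a. Values near background limit what could be seen for Fzd8 in litter 1, for Fzd9 and Fzd10, and for the dimmer probe sets.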
